A study of Mus musculus with 11 samples.

Results

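The enzymes described here make, use and recycle S-adenosylmethionine (SAM) in the liver and dispose of the homocysteine that is left over. The 9 genes, Mat1a, Mat2a, Gnmt, Pemt, Ahcy, Bhmt, Cbs, Cth and Shmt1, were taken by their symbols from a table of 46603 genes, and all 9 were found once. All 9 also passed the filter on low counts that left 13880 genes for testing. SAM is the methyl donor of most methylation reactions, and the liver is its main site of turnover. After SAM has given up its methyl group, S-adenosylhomocysteine (SAH) remains and is split to homocysteine, which is either methylated back to methionine or passed into the transsulfuration route to cysteine. The folate cycle supplies 1-carbon units from serine and glycine to these reactions.

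Bulk poly(A) RNA of the liver was sequenced from 11 male B6.V-Lep ob/JRj mice, which lack leptin. All 11 had been fed the AMLN diet, which is rich in fat including trans-fat, fructose and cholesterol, for 15 weeks from an age of 5 to 6 weeks, and stayed on it during treatment. Steatohepatitis (MASH) with fibrosis was established on a biopsy of each mouse before treatment, and no mouse on a lean diet or with intact leptin enters these comparisons. Vehicle mice (n = 7) received carboxymethyl cellulose and INT-767 mice (n = 4) received INT-767 at 10 mg/kg, both by gavage once daily for 8 weeks. INT-767 is a bile acid analog that activates the nuclear receptor FXR and the membrane receptor TGR5. Terminal blood was taken without fasting. Each library held between 7381211 and 16022459 counts, and the 9 genes had between 142 and 79597 counts in a mouse. Levels are given as CPM, the counts of a gene per 1000000 counts of its library after scaling by TMM factors, and fold changes are on the log2 scale of INT-767 over Vehicle. The hepatocyte marker albumin (Alb) was abundant in liver of both groups, at 42978 CPM on average in Vehicle and 63797 CPM in INT-767.

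The libraries did not vary around their group means independently. Vehicle mice 1 and 7 and INT-767 mice 2 and 4 had 747, 535, 438 and 274 CPM of Malat1, a nuclear non-coding RNA, whereas the other 7 mice had between 1449 and 4669 CPM. Across all tested genes, the deviations of these mice from their group means went together, with correlations from 0.38 to 0.70 between a Vehicle and an INT-767 mouse of the 4. Deviations from the mean of all 11 mice, which include the difference between the groups, were set against the GC content of the gene. In these 4 mice they fell with it (Spearman's rho across genes -0.42, -0.12, -0.26 and -0.24). In Vehicle mice 3 to 6 they rose with it (rho 0.30 to 0.44), and in the other 3 mice rho lay between -0.16 and 0.02. The labels name no batch for these mice. Both groups hold such mice, so the log2 fold change of each of the 9 genes is also given without these 4 mice and within them, a division chosen after the data were seen.

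Of the 9 genes, 5 were called higher in INT-767 mice and none lower at an adjusted p under 0.05 (edgeR's quasi-likelihood test with Benjamini-Hochberg adjustment over all tested genes). Across the 13880 tested genes, 700 were called higher, 5.04%, and 649 lower, 4.68%. The called genes were Cth, Gnmt, Ahcy, Pemt and Mat1a, in order of fold change. Every INT-767 mouse lay above every Vehicle mouse for 3 of the 9 genes, Gnmt, Pemt and Ahcy, against 3.87% of all tested genes. The median log2 fold change of the 9 genes was 0.60, and that of all tested genes was -0.01. All 5 calls were lost without INT-767 mouse 2, where the adjusted p was 0.0549 for Ahcy, 0.0817 for Gnmt, 0.0877 for Cth, 0.102 for Pemt and 0.154 for Mat1a (edgeR), while 164 genes of the whole table were then called higher. In bulk tissue, fewer cells of a type and less RNA per cell cannot be told apart.

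**Figure D1:**
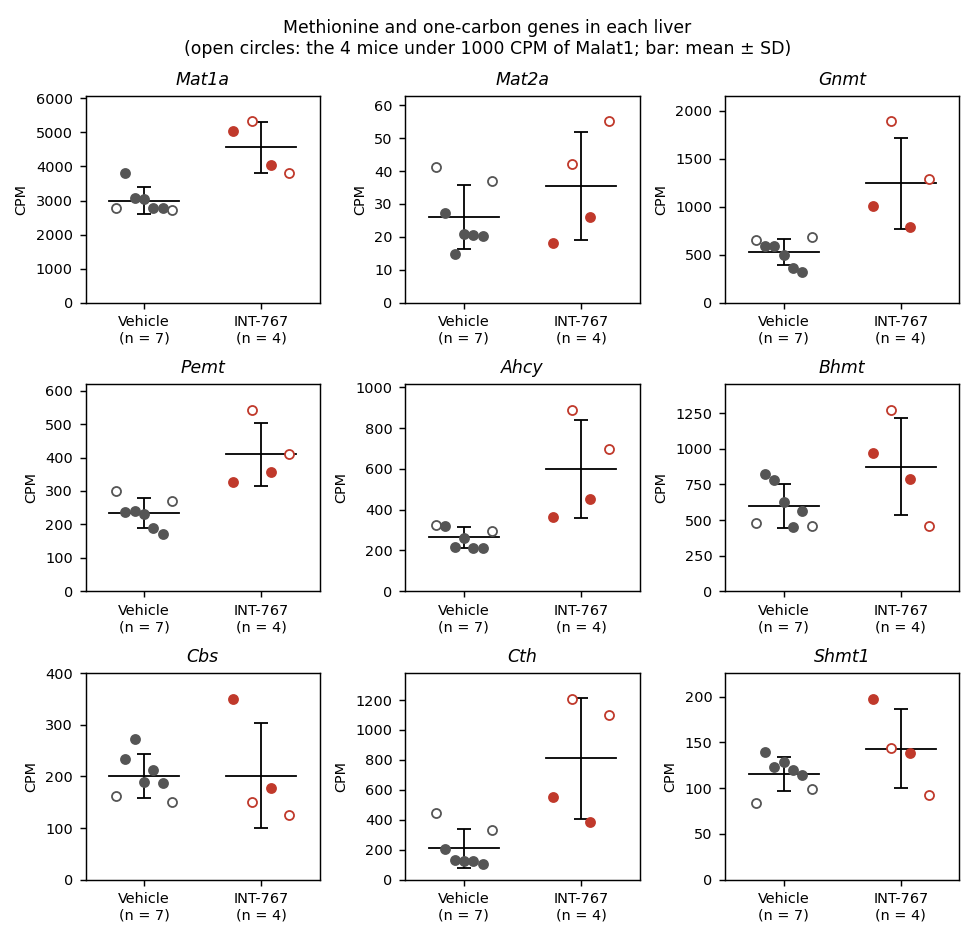
Level of the 9 genes in CPM (linear axes from 0) in each Vehicle (grey, n = 7) and INT-767 (red, n = 4) liver, with the mean ± SD as bars and open circles for the 4 mice under 1000 CPM of Malat1. The INT-767 points of Gnmt, Pemt and Ahcy all lie above the Vehicle points, and within each group the open circles are at the top for Cth.

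The promoters of Gnmt, Ahcy and Bhmt are shown because they hold AGGTCA, the half-site that FXR and many other nuclear receptors bind. Each is the 250 bases before the transcription start in RefSeq on GRCm38.p6, written 5' to 3' on the gene's own strand, which is the minus strand for all of them. Capitals mark AGGTCA or its reverse complement.
Gnmt, chr17:46729166-46729415: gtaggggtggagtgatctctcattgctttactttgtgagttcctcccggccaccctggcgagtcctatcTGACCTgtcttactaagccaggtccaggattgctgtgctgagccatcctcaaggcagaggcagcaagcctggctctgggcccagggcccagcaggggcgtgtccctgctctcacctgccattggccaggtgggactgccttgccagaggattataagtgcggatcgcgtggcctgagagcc
Ahcy, chr2:155074498-155074747: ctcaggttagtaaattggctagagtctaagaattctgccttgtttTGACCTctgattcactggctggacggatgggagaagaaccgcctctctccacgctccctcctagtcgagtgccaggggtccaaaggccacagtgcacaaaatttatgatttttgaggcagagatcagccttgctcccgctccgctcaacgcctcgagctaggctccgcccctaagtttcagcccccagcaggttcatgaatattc
Bhmt, chr13:93637759-93638008: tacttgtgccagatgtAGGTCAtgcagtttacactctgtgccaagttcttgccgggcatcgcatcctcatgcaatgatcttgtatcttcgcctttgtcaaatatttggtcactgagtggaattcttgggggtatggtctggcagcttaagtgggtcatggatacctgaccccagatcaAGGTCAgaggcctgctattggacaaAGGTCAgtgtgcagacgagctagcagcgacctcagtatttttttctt
The match began 181 bases before the start in Gnmt, 205 in Ahcy and 234, 72 and 47 in Bhmt. RefSeq promoters were matched for 7 of the 9 genes, all but Mat1a and Cth, with 2 for Pemt and thus 8 in all, and those of Mat2a, Pemt, Shmt1 and Cbs held no AGGTCA on either strand in this window. Of 32851 mouse promoters of the same length, 14.02% held it. Of the 3 genes with a match, Gnmt and Ahcy were called higher and Bhmt was not. The inverted repeat of AGGTCA with 1 base in between, the arrangement FXR is best known to bind, was in none of the promoters of these 7 genes and in 2 of the 32851. GGGCGG, the core of the GC box, was found on either strand 3 times for Mat2a, 4 times for Shmt1, 2 times for Cbs and 1 time for Ahcy, and in 32.7% of all promoters. These matches describe letters in a window and were not tested for binding.

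Mat1a and Mat2a make SAM. Mat1a (chr14:41105035-41124412, 10 merged exons) encodes the methionine adenosyltransferase of the adult hepatocyte, which joins methionine and ATP to SAM, and Mat2a (chr6:72432799-72439558, 8 merged exons) encodes the form of other tissues and of dividing cells. Vehicle mice had between 2731 and 3819 CPM of Mat1a with a median of 2784, and the INT-767 mice had 5048, 5322, 4047 and 3814 CPM. The groups touched only through Vehicle mouse 2, which was above INT-767 mouse 4. Mat1a was called 0.60 higher on the log2 scale (SE 0.16, edgeR adjusted p = 0.0345), the smallest of the 5 called changes. The call was lost in 7 of the 11 fits that left out 1 mouse, whereas the calls of Gnmt, Pemt, Ahcy and Cth were each lost in 1 of them, that without INT-767 mouse 2. Mat1a did not overlap between the groups among the 7 mice with more Malat1, at 0.56 (edgeR adjusted p = 0.0699), or among the other 4, at 0.70 (edgeR adjusted p = 0.245).

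Mat2a was low, between 14.7 and 41.3 CPM with a median of 20.9 in Vehicle and at 18.3, 42.2, 26.1 and 55.1 CPM in INT-767. Its log2 fold change of 0.45 had a 95% interval from -0.26 to 1.15 (edgeR adjusted p = 0.335) and did not pass the test. The mice under 1000 CPM of Malat1 were the highest of their group, at 41.3 and 37.0 CPM in Vehicle and 42.2 and 55.1 CPM in INT-767, and the log2 fold change was 0.09 (edgeR adjusted p = 0.807) among the other 7 mice and 0.28 (edgeR adjusted p = 0.520) within these 4. The opposite-strand gene Particl covers 11.3% of the exon bases of Mat2a, and reads of the 2 can be told apart only if the counting used the strand. Per kilobase of exon, the Mat1a level was 176 times that of Mat2a in the median Vehicle mouse (range 86.8 to 271). The INT-767 mice had ratios of 358, 163, 200.3 and 89.6, and the difference did not pass an exact two-sided Mann-Whitney test (p = 0.788), in which the smallest possible value is 0.00606. The lowest ratios of each group were those of Vehicle mice 1 and 7 and INT-767 mouse 4, all under 1000 CPM of Malat1.

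Gnmt and Pemt use SAM. Gnmt (chr17:46725664-46729168, 5 merged exons) encodes glycine N-methyltransferase, an abundant hepatocyte enzyme that consumes surplus SAM by methylating glycine to sarcosine. Vehicle mice had between 324 and 680.4 CPM with a median of 587, and the INT-767 mice had 1013, 1889, 786 and 1288 CPM. The lowest INT-767 mouse was above the highest Vehicle mouse, although the INT-767 mice ranged widely among themselves. The mean was 528 ± 140.1 CPM in Vehicle (SD, n = 7) and 1244 ± 477 CPM in INT-767 (SD, n = 4). Gnmt was called 1.24 higher (SE 0.26, edgeR adjusted p = 0.0150). Within the 7 mice with more Malat1 the log2 fold change was 0.94 (edgeR adjusted p = 0.0278), and within the other 4 it was 1.22 (edgeR adjusted p = 0.0700), with no overlap in either.

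Pemt (chr11:59970614-60046489, 13 merged exons) encodes the enzyme that methylates phosphatidylethanolamine to phosphatidylcholine, another large consumer of SAM in the liver. Vehicle mice had between 169.7 and 299.9 CPM with a median of 236, and INT-767 mice had 328, 543, 357 and 410.4 CPM, with no overlap. Its log2 fold change was 0.81 (SE 0.19, edgeR adjusted p = 0.0218). It was close to the same size in both divisions of the mice, at 0.69 (edgeR adjusted p = 0.0230) with more Malat1 and 0.70 (edgeR adjusted p = 0.169) with less. Pemt had one of the tighter spreads of the called genes, with a coefficient of variation of 19.1% in Vehicle and 23.2% in INT-767, against 61.5% and 50.1% for Cth.

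The next step splits SAH. Ahcy (chr2:155059310-155074497, 10 merged exons) encodes S-adenosylhomocysteine hydrolase, which removes the product and inhibitor of the methyltransferases. Its Vehicle levels ran from 212 to 325 CPM with a median of 261, and the INT-767 mice had 365, 889.6, 450.4 and 696 CPM. The groups did not overlap, and INT-767 mice 2 and 4 stood well above the other INT-767 mice. Ahcy was called 1.19 higher (SE 0.23, edgeR adjusted p = 0.0115), the lowest adjusted p of the 9 genes. The log2 fold change was 0.74 (edgeR adjusted p = 0.0246) in the 7 mice with more Malat1 and 1.32 (edgeR adjusted p = 0.0402) in the other 4. Of the 75-base stretches of its transcripts, 65.9% also occur in another gene, mostly the pseudogene Gm4737, so the Ahcy level depends on how the counting treated such reads. Gm4737 itself had between 5 and 62 counts in a mouse.

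Bhmt and Shmt1 stand for remethylation of homocysteine and for the folate cycle. Bhmt (chr13:93616675-93637961, 7 merged exons) encodes the liver enzyme that remethylates homocysteine with betaine. Vehicle mice had between 453 and 823 CPM with a median of 564, and the INT-767 mice had 972, 1274, 789 and 459.8 CPM. INT-767 mice 1 and 2 were above all Vehicle mice, and INT-767 mouse 4 was below the Vehicle median. The log2 fold change of 0.55 (95% interval -0.02 to 1.11, edgeR adjusted p = 0.163) did not pass the test, nor did that of 0.44 (edgeR adjusted p = 0.191) in the 7 mice with more Malat1 or that of 0.85 (edgeR adjusted p = 0.263) in the other 4. Of its 75-base stretches 21.6% occur in another gene, mostly Gm5096, which had between 8 and 41 counts. Shmt1 (chr11:60788104-60811718, 15 merged exons), the cytosolic hydroxymethyltransferase that moves a 1-carbon unit from serine to folate, was at 83.3 to 139 CPM with a median of 120.03 in Vehicle and 198, 144, 138 and 92.1 CPM in INT-767. INT-767 mice 1 and 2 were above all Vehicle mice, and the difference of 0.31 (95% interval -0.12 to 0.74, edgeR adjusted p = 0.280) did not pass. For Shmt1 the 7 mice with more Malat1 gave 0.43 (edgeR adjusted p = 0.0883) and the other 4 gave 0.33 (edgeR adjusted p = 0.507).

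Cbs and Cth form the transsulfuration route. Cbs (chr17:31608894-31637238, 21 merged exons) encodes cystathionine beta-synthase, which condenses homocysteine with serine, and Cth (chr3:157894248-157925077, 13 merged exons) encodes cystathionine gamma-lyase, which splits the product to cysteine. Cth had the largest fold change of the 9 genes. Vehicle mice had between 105 and 445 CPM with a median of 134, and INT-767 mice had 551, 1210, 382 and 1098 CPM. Vehicle mouse 1, at 445 CPM, was above INT-767 mouse 3, so the groups overlapped by 1 mouse. Cth was called 1.94 higher (SE 0.43, 3.84-fold, edgeR adjusted p = 0.0193). In Vehicle, the mice low in Malat1 (1 and 7) had 445 and 333 CPM of Cth and the other 5 had between 105 and 208 CPM. Within the 7 mice with more Malat1 the log2 fold change was 1.74 (edgeR adjusted p = 0.00115) and within the other 4 it was 1.54 (edgeR adjusted p = 0.0269), with no overlap in either.

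Cbs was at 149.7 to 273 CPM with a median of 188 in Vehicle and at 351, 151, 178 and 126 CPM in INT-767. INT-767 mouse 1 was the highest and INT-767 mouse 4 the lowest of all 11 mice. The log2 fold change was 0.00 with a 95% interval from -0.57 to 0.58 (edgeR adjusted p = 0.992), and its sign turned negative with library size scaling (-0.17) and with upper-quartile scaling (-0.07). It was 0.28 (edgeR adjusted p = 0.445) in the 7 mice with more Malat1 and -0.21 (edgeR adjusted p = 0.643) in the other 4. Per kilobase of exon, the ratio of Cth to Cbs in a mouse was 7.35 and 5.96 in Vehicle mice 1 and 7 and between 1.31 and 2.39 in the other 5 Vehicle mice, and it was 4.21, 21.5, 5.76 and 23.4 in INT-767 mice 1 to 4. This ratio was chosen after the levels were seen and was not tested. INT-767 mice 1 and 3 were above the 5 Vehicle mice with more Malat1, and INT-767 mice 2 and 4 were above Vehicle mice 1 and 7.

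**Figure D2:**
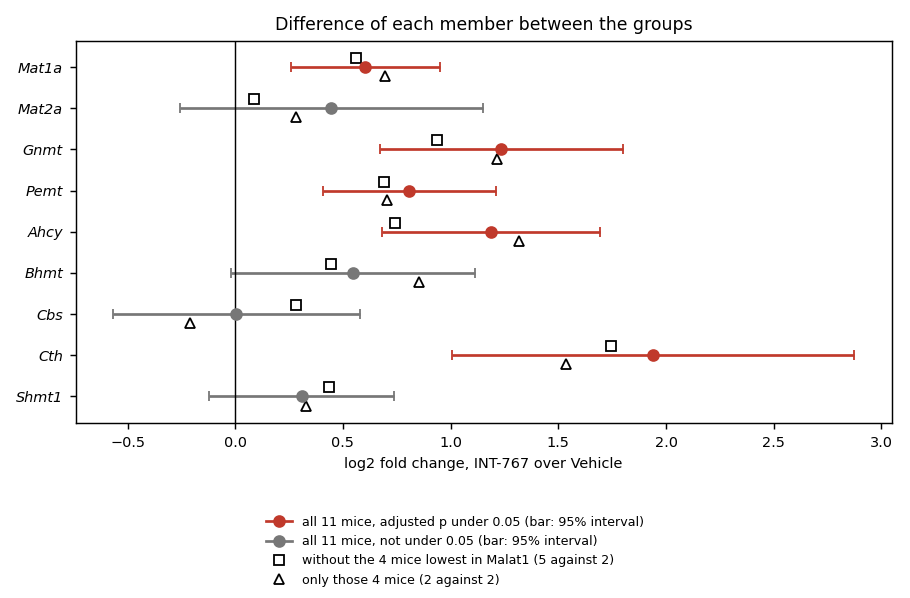
Log2 fold change of INT-767 over Vehicle for each of the 9 genes (circles, all 11 mice, with 95% intervals; red where the adjusted p was under 0.05), with squares for the 7 mice above 1000 CPM of Malat1 and triangles for the other 4. For the 5 called genes, circle, square and triangle all lie right of 0, from 0.56 to 1.94, whereas the symbols of Cbs lie on both sides of 0.

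**Figure D3:**
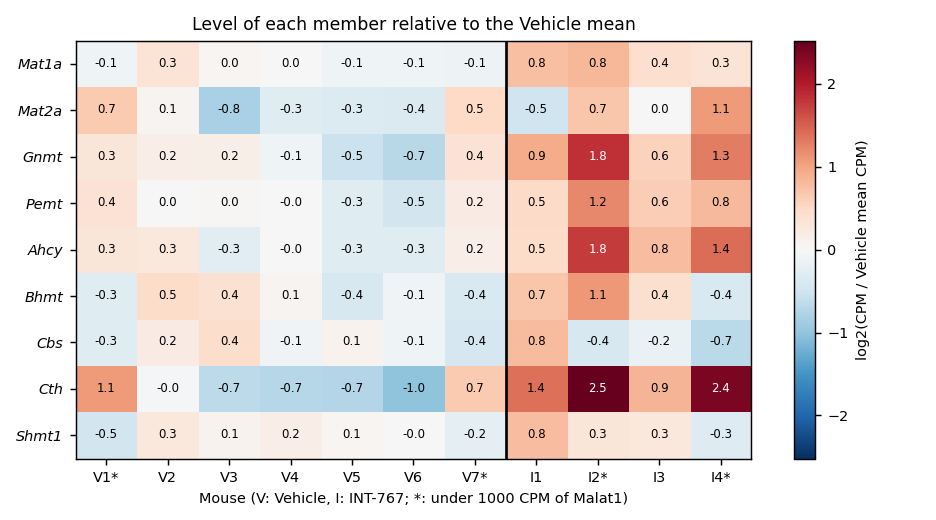
Level of each gene in each mouse as log2 of the CPM over the Vehicle mean (colour scale centred on 0; V, Vehicle; I, INT-767; the asterisk marks the 4 mice under 1000 CPM of Malat1). Cth is darkest in INT-767 mice 2 and 4, at 5.73 and 5.20 times the Vehicle mean, and Cbs is low in the same mice.

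The mice ranked alike for several of the genes. In INT-767, mouse 2 was highest and mouse 4 next for Cth, Gnmt, Ahcy and Pemt, and in Vehicle, mice 1 and 7 held the 2 highest levels of Cth, Gnmt, Pemt and Mat2a. For Cbs the order was turned, since Vehicle mice 7 and 1 and INT-767 mice 4 and 2 were the lowest of their groups, and for Shmt1 Vehicle mice 1 and 7 and INT-767 mouse 4 were lowest. These are the same 4 mice that were low in Malat1. Their part in the spread of the members was not tested.

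Compared per kilobase of exon in Vehicle, Mat1a was highest at 864 ± 112 CPM per kb (SD, n = 7), followed by Gnmt at 438 ± 116. Their ranges, 787 to 1101 and 269 to 564, did not overlap. Pemt, Bhmt, Ahcy and Cth came next at 111, 104, 94.0 and 75.6 CPM per kb, and neighbours in that order had overlapping ranges. Shmt1 at 29.8 and Cbs at 26.8 also overlapped, and Mat2a was lowest at 5.80 ± 2.17 with no overlap with Cbs. Dividing by the longest transcript instead of all exons merged kept Mat1a, Gnmt, Pemt and Bhmt as the 4 highest and exchanged Ahcy and Cth. In INT-767 mice, Gnmt reached 1031 ± 395 CPM per kb (SD, n = 4) beside 1314 ± 213 for Mat1a, and their ranges overlapped. Cth, at 290.3 CPM per kb, had a higher mean than Ahcy at 214, Pemt at 195 and Bhmt at 152, with overlapping ranges.

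The genes with profiles most like those of the called members over the 11 mice were found by the root-mean-square difference of log2 CPM after each gene was centred on its own mean. For Pemt they were Haao, Ddt and 1700024P16Rik, at 0.08, 0.08 and 0.09 log2 units, against a spread of 0.47 for Pemt itself. For Mat1a they were Slc6a12, Btd and Iyd, at 0.10, 0.11 and 0.11, against 0.34. Gnmt was nearest to Acot13, Mpv17l and Mdh1 (0.20, 0.21 and 0.21 against 0.72) and Ahcy to Tprkb, Macrod1 and Agmo (0.14, 0.16 and 0.16 against 0.65). Cth was nearest to 3110052M02Rik, Srd5a1 and Gm14420 (0.20, 0.23 and 0.24 against 1.20). Of the other 8 enzyme genes, Ahcy at place 24 and Pemt at place 36 were the nearest to Gnmt among the tested genes, with the remaining 6 between place 1643 (Mat1a) and place 8340 (Cbs). From Mat1a, the nearest was Shmt1 at place 726 and the farthest Cth at place 12541. All 11 mice enter these distances, so both the difference between the groups and the order of the mice within a group count in them.

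Around the 9 genes, 69 more of the pathway were listed by their role, and all 69 were tested. Of these, 11 were called higher, 15.9% beside 5.04% of all tested genes, and 1 lower, beside 4.68%. The median log2 fold change of the 69 was 0.28, and 52 of them had a positive fold change, as did 49.4% of all tested genes. The calls were Sqor, Hnmt, Suox, Ftcd, Aldh1l1, Sds, Fpgs, Inmt, Dmgdh, Pcyt2 and Agxt among the higher and Csad as the lower one. Without INT-767 mouse 2 there were 3 calls higher, beside 164 in the whole table, without Vehicle mouse 1 there were 17, beside 1906, and without the 4 mice low in Malat1 there were 9, beside 856 or 5.96% of 14363 tested genes. Sqor, Ftcd, Dmgdh and Csad passed the test in each of the 11 fits that left out 1 mouse.

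Among the SAM-dependent methyltransferases, 4 of 10 were called higher, beside 5.04% of all tested genes. They were Gnmt and Pemt, already counted among the 9, with Hnmt, which inactivates histamine, and Inmt, which methylates indolethylamines. Hnmt was at 52.8 ± 18.8 CPM in Vehicle (SD, n = 7) and 131 ± 51.8 in INT-767 (SD, n = 4), 1.31 higher (SE 0.29, edgeR adjusted p = 0.0184), and 0.58 higher with the offset for GC content and length. Inmt was 0.92 higher (edgeR adjusted p = 0.0474), a call lost in 7 of the 11 fits that left out 1 mouse and without the 4 mice low in Malat1 (0.56, edgeR adjusted p = 0.118). Gamt, which makes creatine with SAM, was at 129 ± 20.2 and 181 ± 22.6 CPM and did not pass (0.49, edgeR adjusted p = 0.0595). Of the 3 genes of SAM synthesis, Mat1a was called and Mat2a and Mat2b were not, beside the same 5.04%. Ahcy was called, and its relatives Ahcyl1 and Ahcyl2, which were listed with it, were not. Ahcyl1 was 0.20 (SE 0.13) and Ahcyl2 0.08 (SE 0.20) higher, neither past the test.

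None of the 5 homocysteine remethylation genes was called, beside 5.04% of all tested genes called higher and 4.68% called lower. Bhmt2, the neighbour of Bhmt that uses S-methylmethionine, was 0.55 higher (SE 0.19, edgeR adjusted p = 0.0767), and Mtr, the methionine synthase that uses methylfolate, was at 7.86 ± 3.69 CPM in Vehicle and 4.12 ± 2.55 in INT-767 (-0.93, SE 0.47, edgeR adjusted p = 0.179). Of the 5 genes that oxidise choline and break down dimethylglycine, Dmgdh, the mitochondrial dimethylglycine dehydrogenase, was called higher, beside the same 5.04%. It was at 250.1 to 387 CPM in Vehicle with a median of 304 and at 526, 687, 489 and 572 CPM in INT-767, so the groups did not overlap. The log2 fold change of Dmgdh was 0.88 (SE 0.15, edgeR adjusted p = 0.00577).

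Downstream of Cth, 2 of 8 genes of cysteine and sulfur oxidation were called higher and 1 lower, beside 5.04% and 4.68% of all tested genes. Sqor, listed in the table under its earlier symbol Sqrdl, encodes the mitochondrial enzyme that oxidises sulfide. It was at 105 to 233 CPM with a median of 128 in Vehicle and at 284, 555, 279.7 and 362 CPM in INT-767, with no overlap, 1.36 higher (SE 0.25, edgeR adjusted p = 0.00881). Suox, which oxidises sulfite to sulfate, was 1.29 higher (SE 0.28, edgeR adjusted p = 0.0189). Csad encodes the decarboxylase of the route from cysteine to taurine. It was at 424 to 597 CPM with a median of 489.9 in Vehicle and at 121, 75.3, 218 and 224 CPM in INT-767. All INT-767 mice were below all Vehicle mice, and the log2 fold change of Csad was -1.64 (SE 0.27, edgeR adjusted p = 0.00524).

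In the folate cycle 3 of 17 genes were called higher and none lower, beside the same 5.04% and 4.68%. Ftcd, which passes a 1-carbon unit from histidine breakdown to folate, was at 252 to 319 CPM with a median of 285 in Vehicle and at 477, 773, 477 and 954 CPM in INT-767. Every INT-767 mouse was above every Vehicle mouse, and Vehicle mice differed by little among themselves. Ftcd was 1.25 higher (SE 0.19, edgeR adjusted p = 0.00403), and 0.83 higher without the 4 mice low in Malat1. Aldh1l1, which releases the 1-carbon unit of 10-formyl folate as carbon dioxide, was 1.10 higher (SE 0.28, edgeR adjusted p = 0.0307), and Fpgs, which adds glutamates to folate, was 0.98 higher (SE 0.27, edgeR adjusted p = 0.0414). The groups of Aldh1l1 and Fpgs overlapped, and leaving out 1 mouse ended the call in 6 of 11 fits for Aldh1l1 and 8 of 11 for Fpgs. Fpgs was 0.28 (edgeR adjusted p = 0.279) in the 7 mice with more Malat1 and 1.25 (edgeR adjusted p = 0.0355) in the other 4. Among the 9 genes of glycine and serine metabolism, 2 were called higher, beside the same 5.04%. Sds, the serine dehydratase, was 1.08 higher (edgeR adjusted p = 0.0454) and Agxt, which converts glyoxylate to glycine, was 0.74 higher (edgeR adjusted p = 0.0268). The call of Sds was lost in 8 of the 11 fits without 1 mouse and without the 4 mice low in Malat1 (1.29, edgeR adjusted p = 0.150), and that of Agxt in 3 of the 11. Of the 6 genes around the choline kinase route to phosphatidylcholine, 1 was called higher, beside the same 5.04%. It was Pcyt2, whose product makes CDP-ethanolamine for the phospholipid that Pemt methylates, at 0.76 (edgeR adjusted p = 0.0450). The call of Pcyt2 was lost in 8 of the 11 fits without 1 mouse. Pcyt2 was 0.28 (edgeR adjusted p = 0.290) in the 7 mice with more Malat1 and 1.02 (edgeR adjusted p = 0.0918) in the other 4. None of the 10 genes of polyamine synthesis and methionine salvage was called, beside the same 5.04% and 4.68%, and their median log2 fold change was 0.11. Genes on the opposite strand cover 29.6% of the exon bases of Sds, 11.1% of those of Aldh1l1, 7.26% of those of Csad and 6.30% of those of Dmgdh.

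**Figure D4:**
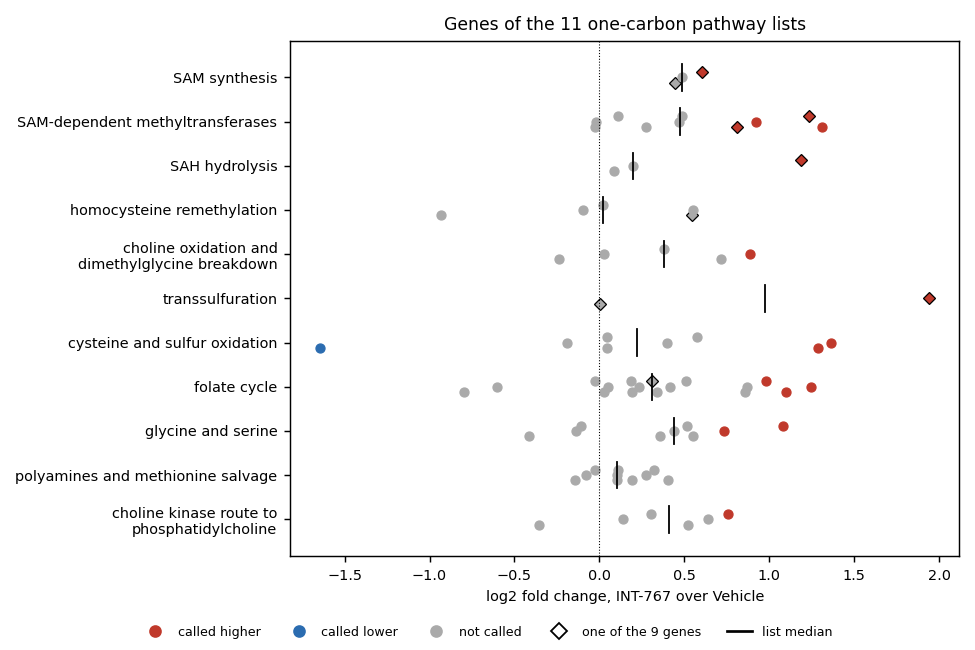
Log2 fold change of INT-767 over Vehicle for every tested gene of 11 pathway lists, the 9 genes included as diamonds; red, called higher; blue, called lower; grey, not called; vertical bars, list medians. Red points lie in 9 of the 11 lists, none in homocysteine remethylation or in polyamines and methionine salvage, and the single blue point is Csad at -1.64.

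Some markers of the cell types that a liver sample holds differed between the groups as well. Of 7 markers of periportal hepatocytes, the cells near the portal vein, 5 were called higher, beside 5.04% of all tested genes, namely Hal, Ass1, Gls2, Cyp2f2 and Sds, and the last of these is also one of the pathway genes above. Hal, the first enzyme of histidine breakdown and thus upstream of Ftcd, was at 83.1 CPM in Vehicle and 325 CPM in INT-767, and Ass1, the argininosuccinate synthase of the urea cycle, was at 818 and 2026 CPM. The most abundant marker of the list in Vehicle, Pck1, an enzyme of gluconeogenesis, was at 1120.3 and 1097 CPM and did not pass the test. The summed level of the 7 markers was between 2403 and 3522 CPM with a median of 2641 in Vehicle and 7065, 5104, 4771 and 3209.8 CPM in INT-767, so that INT-767 mouse 4 lay within the Vehicle range, and none of the 7 was at 0 in any mouse. None of the 7 tested markers of pericentral hepatocytes, those near the central vein, was called in either direction. Of all tested genes, 5.04% were called higher and 4.68% lower. Rhbg, also on the pericentral list, was too low to test. The summed level of the pericentral markers, in which Cyp2e1 had the highest mean in both groups, was 2962 to 8053 CPM with a median of 5779 in Vehicle. In INT-767 the summed level was 2111, 3742, 5399 and 2002 CPM. Vehicle mice 1 and 7 were at 2962 and 3056 CPM, the lowest of their group. None of 6 general hepatocyte markers was called (Alb 0.57, edgeR adjusted p = 0.0891), beside the same 5.04% and 4.68%. Their summed level was 58224 ± 5258 CPM in Vehicle (SD, n = 7) and 83462 ± 20791 in INT-767 (SD, n = 4).

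Among the other cell types, 2 of 10 stellate cell and myofibroblast markers (Col1a1 and Pdgfrb), 2 of 8 macrophage markers (Csf1r and Cd68), 1 of 3 tested neutrophil markers (Csf3r) and 5 of 8 markers of cycling cells (Mki67, Top2a, Ccna2, Birc5 and Mcm2) were called lower, beside 4.68% of all tested genes, and none higher. The log2 fold change was positive, without a call, for 3 of the 10 stellate markers (Lrat, Dcn and Rgs5) and 1 of the 8 macrophage markers (Clec4f). It was also positive for 2 of the 3 tested neutrophil markers (S100a8 and S100a9) and for 1 of the 8 cycling-cell markers, Pcna (0.30). No marker of sinusoidal endothelium (6), cholangiocytes (6) or lymphocytes (5 tested) was called, beside 5.04% of all tested genes called higher and 4.68% lower. Without the 4 mice low in Malat1, 6 of the 8 macrophage, 2 of the 10 stellate, 3 of the 8 cycling-cell, 1 of the 6 endothelial and 1 of the 3 tested neutrophil markers were called lower, beside 6.12% of all genes tested in that fit, and 2 of the 6 general hepatocyte markers, 5 of the 7 periportal and 1 of the 7 tested pericentral markers were called higher, beside 5.96%. The macrophage markers summed to 517 to 714 CPM with a median of 557 in Vehicle and to 357, 367, 289.6 and 711 CPM in INT-767, and the stellate markers to 712 to 1225 with a median of 849 and to 649, 745, 703 and 1094 CPM. The markers of cycling cells summed to 47.5 to 105 CPM with a median of 69.7 in Vehicle and to 46.6, 50.5, 42.7 and 73.0 CPM in INT-767. In Vehicle, the most abundant marker of each list was Dcn for stellate cells, Cd5l for macrophages, Stab2 for endothelium, Spp1 for cholangiocytes, Nkg7 for lymphocytes, Csf3r for neutrophils and Pcna for cycling cells. Timd4, a marker of resident macrophages, and Ly6g and Retnlg, markers of neutrophils, were at 0 counts in some mice, and no listed marker was at 0 in all of them. The part of cell composition or of zonation in the differences of the 9 genes was not tested.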

How the data were processed

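Per the labels and the study's methods, the authors made stranded poly(A) libraries, sequenced them for 75 cycles and aligned them to GRCm38; the submitters' processing notes name STAR 2.4.0 and the methods a later release. The counting program and its strand setting could not be found in the labels or methods. The deposited values are whole-number counts per gene and mouse, and the counts of the 11 mice (7381211 to 16022459 a mouse) were tested as deposited. The 9 genes and the lists were chosen with earlier results of these data known. Genes were kept by edgeR's filterByExpr (minimum count 10, total 15), scaled by TMM and tested with edgeR 4.0.16 (glmQLFit, glmQLFTest) in R 4.3.3 with group as the only term, and p-values were adjusted after Benjamini and Hochberg over all 13880 genes. Alternatives used limma 3.58.1 and DESeq2 1.42.0, other scaling and filters, GC content and length offsets and 1 mouse left out. Per-mouse ratios were compared with exact two-sided Mann-Whitney tests (scipy 1.17.1). Genes named were all 9, each called gene of the pathway lists, the 3 most similar profiles of each called gene, and the most abundant, absent and called markers, while Gamt, Mat2b, Ahcyl1, Ahcyl2, Bhmt2 and Mtr, which were not called, were chosen after their values were seen. Ratio of Cth to Cbs and both divisions by Malat1 were chosen after their values were seen. Exon positions came from GENCODE M21 on GRCm38, where 46091 of the 46603 genes were matched, and the study's alignment used an earlier annotation of the same assembly. Counts per mouse were checked for libraries deposited in duplicate, and none was found. The numbers 1 to 4 that both groups carry were checked for pairing, and the mice were treated as unpaired. One marker of the periportal list is not reported here and was left out of its counts and sums.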

Additional observations from a re-analysis of the deposited data

Results flagged for a closer look

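The highest Vehicle level of Mat1a, 3819 CPM in Vehicle mouse 2, stood apart from the next one at 3082 CPM by 0.677 of the whole range of the 7 Vehicle mice, beyond Dixon's limit at the 95% level. It was the only such value among 44 groups of levels and ratios examined, and chance alone is expected to give about 1 in 20 groups.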

How the results depend on the processing

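All 5 called genes of the 9 kept a positive log2 fold change under each of the 24 alternative fits, which changed scaling, filter, tool or mice or added the offset, the replicate block or both. The calls of Gnmt, Pemt, Ahcy and Cth held under RLE, library size and upper-quartile scaling, both filters, limma-voom with and without sample weights, DESeq2 and the offset for GC content and length. Mat1a did not pass with library size scaling (0.40, adjusted p = 0.0940), without the count filter (0.61, 0.0710) or without the 4 mice low in Malat1 (0.56), and within those 4 mice Mat1a (0.70), Gnmt (1.22) and Pemt (0.70) did not pass, where 2 mice a group remained. At an adjusted p under 0.01, 0 of the 9 genes were called. Leaving out 1 mouse gave log2 fold changes of 0.51 to 0.67 for Mat1a, 0.95 to 1.41 for Gnmt, 0.63 to 0.91 for Pemt, 0.92 to 1.37 for Ahcy and 1.66 to 2.24 for Cth, and between 0 and 5 members called. Cbs changed sign with library size (-0.17), upper-quartile (-0.072) and the stricter filter (-0.054), and with limma-voom (-0.10) and its weights (-0.084). It was also negative within the 4 mice low in Malat1 (-0.21), and over fits without 1 mouse it ran from -0.40 to 0.17. With the GC content and length offset Cbs was 0.30 (edgeR adjusted p = 0.280). The ratio of the Mat1a to Mat2a medians between groups ran from 0.93 to 1.14 without 1 mouse.

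Same-numbered Vehicle and INT-767 mice deviated from their group means with correlations of -0.69, 0.22, 0.15 and -0.48. Those of differently numbered mice ran from -0.63 (Vehicle mouse 7 with INT-767 mouse 1) to 0.70 (Vehicle mouse 1 with INT-767 mouse 4). With values this spread, the 4 same-numbered correlations cannot decide whether the numbers pair the mice. The replicate block gives each number its own term. Vehicle mice 5, 6 and 7 share no number with an INT-767 mouse and so add nothing to the blocked fold change, and few mice are left to estimate the spread. With the replicate block 0 genes of the table were called higher and 0 lower, and 0 of the 9 (edgeR), while 565 and 782 had an unadjusted p under 0.05, 4 of the 9 among them. The blocked log2 fold changes were 0.52 for Mat1a, 1.03 for Gnmt, 0.68 for Pemt, 1.03 for Ahcy, 1.88 for Cth and -0.20 for Cbs, and with the block and the GC content and length offset together they were 0.66, 0.91, 0.54, 1.10 and 1.64 for the first 5, with 0 genes called either way, as among the wider pathway genes.

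Counts of genes called across the table, 700 higher and 649 lower, became 332 and 1026 with library size scaling, which shifted the median log2 fold change of all genes to -0.22, 1658 and 1219 with sample weights, 1443 and 1368 with DESeq2, 158 and 87 at an adjusted p under 0.01, 130 and 94 within the 4 mice low in Malat1, and 1073 higher with the offset. With upper-quartile scaling they were 467 and 812. Leaving out 1 mouse gave 164 to 1906 higher and 110 to 1370 lower, lowest without INT-767 mouse 2 and highest without Vehicle mouse 1. Of the 69 wider pathway genes, 11 called higher became 5 with library size, 7 with upper-quartile scaling, 7 with limma-voom, 17 with sample weights, 3 at an adjusted p under 0.01, 3 within the 4 mice and 3 to 17 without 1 mouse. The 1 called lower became 2 with sample weights, with DESeq2 and without the 4 mice low in Malat1, 0 within those 4 mice, and 1 to 2 without 1 mouse. The cause of these shifts was not tested. The lowest count behind a level of the 9 genes was 142, for Mat2a in Vehicle mouse 3.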
